A study of Rattus norvegicus with 12 samples.

Results

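The receptors for monoamines, opioids, neuropeptides, adenosine and nucleotides, cannabinoids and prostaglandin E2 were followed in inflamed and sham-operated rat dorsal root ganglia (DRG). Members were chosen by gene symbol alone, as probesets carrying exactly 1 symbol that begins with the stem of an opioid, serotonin, dopamine, adrenergic, muscarinic, galanin, neuropeptide Y, tachykinin, somatostatin, bradykinin, histamine, adenosine, P2Y, cannabinoid, prostaglandin E2, endothelin, melanocortin, neurotensin or cholecystokinin receptor. This gave 70 of the 8260 core probesets, of which 7603 carried 1 symbol, and each of the 70 stood for a different gene. Of the 70, 67 were G protein-coupled receptors. Htr3a and Htr3b encode the subunits of a serotonin-gated ion channel, and Oprpn encodes a secreted peptide precursor and no receptor. No probeset with 1 symbol was found for the endothelin or neurotensin receptors, and a probeset shared by Bdkrb2 and another gene was left out, so these receptors were not analysed here.

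Affymetrix Rat Exon ST 1.0 arrays were hybridised with RNA of single L5 ganglia from 12 adult male Sprague Dawley rats, 1 rat to an array. Local inflammation of the DRG (LID) was induced in 6 rats with zymosan, made from the cell walls of yeast and an activator of immune cells, of which 10 µl at 2 mg/ml, suspended in incomplete Freund's adjuvant, was placed under the intervertebral foramen. The other 6 rats were sham-operated, with an incision and exposure of the foramen but with neither zymosan nor adjuvant, so effects of the injection, the adjuvant and zymosan cannot be told apart. All ganglia were collected on post-operative day (POD) 3.

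Each value is a log2 signal relative to the median of the 12 arrays for that gene. No level of expression is left in the values, so whether a receptor was detected could not be assessed from them, and levels of different receptors were not compared. The paper's own list of observed genes was not used to select members. Because the median of the 12 values is 0 for every gene, the 2 middle values lie at equal distances on either side of 0. A gene is called upregulated or downregulated where the Benjamini-Hochberg adjusted p from limma, over all 8260 probesets, was under 0.05 with 6 arrays per group. Intervals are 95% confidence intervals, and the number of arrays limits the precision. Changes and falls given without the word fold are on the log2 scale.

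G protein-coupled receptors are grouped by the G protein they activate. Receptors coupled to Gi/o, among them the opioid receptors, lower cyclic AMP, open inwardly rectifying potassium channels and close calcium channels, and in sensory neurons they commonly reduce excitability and transmitter release. Receptors coupled to Gq raise intracellular calcium through phospholipase C, and receptors coupled to Gs raise cyclic AMP. Several of these receptors are also found on immune cells, where nucleotides and adenosine are signals of tissue damage.

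The ganglia held the cell types of a DRG in unknown amounts, since the values give no levels against which the tissue label could be checked. The mean of 9 neuronal markers, such as Nefl and Tubb3, ran from -0.03 to 0.04 in the 6 sham arrays and from -0.09 to 0.06 in the 6 LID arrays. In limma 0 of the 9 genes passed the test, and 7 of the 9 changes were below 0. The 2 genes at an unadjusted p under 0.05 in limma, Snap25 (-0.19 on the log2 scale) and Stmn2 (-0.09), were both lower in LID. All 12 macrophage and monocyte markers were upregulated, and their mean ran from -1.07 to -0.16 in sham and from 0.26 to 0.96 in LID. Of 7 satellite glial markers, Kcnj10, Slc1a3 and Gjb6 were downregulated and 4 did not pass. Of the 7 changes, 3 were above 0, the highest at 0.27 on the log2 scale. Sham replicate 2 stood apart, with a median over the 70 members of 0.24, against -0.12 to 0.09 in the other 11 arrays. The 953 probesets for receptors of odorants, trace amines and pheromones also had their highest median there, at 0.22.

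Of the 70 members, 5 were upregulated, 7 were downregulated and 58 did not pass the test. The receptor for uridine diphosphate P2ry6, the ADP receptor P2ry13, the serotonin receptor Htr2b, the galanin receptor Galr2 and the adenosine receptor Adora2a rose. The dopamine receptor Drd2, the galanin receptor Galr1, the serotonin receptors Htr1d and Htr1a, the mu and kappa opioid receptors Oprm1 and Oprk1 and the histamine receptor Hrh3 fell. The 12 called members were 17.1% of the 70, against 19.4% of all probesets called in either direction. Upregulated members were 7.14%, against 7.66% of all probesets, and downregulated members were 10% (background 11.7%). The share called was thus close to the background, and the counts set the members apart from other genes in neither direction. When 1 array was left out, the downregulated count ran from 4 (sham replicate 4 left out) to 11 (sham replicate 6 left out), and the upregulated count from 4 to 6. The median change was -0.05 on the log2 scale for the members (-0.02 over all probesets), with a range from -0.66 to 0.76. Below 0 lay 45 of the 70 members (64.3%), against 58.0% of all probesets. In 5 members the groups did not overlap, as in 10.0% of all probesets. At an unadjusted p under 0.05, 20 members passed (background 29.9%). With a fold change over 1.5 required as well, P2ry6, P2ry13 and Drd2 were called (background 2.99%).

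**Figure D1:**
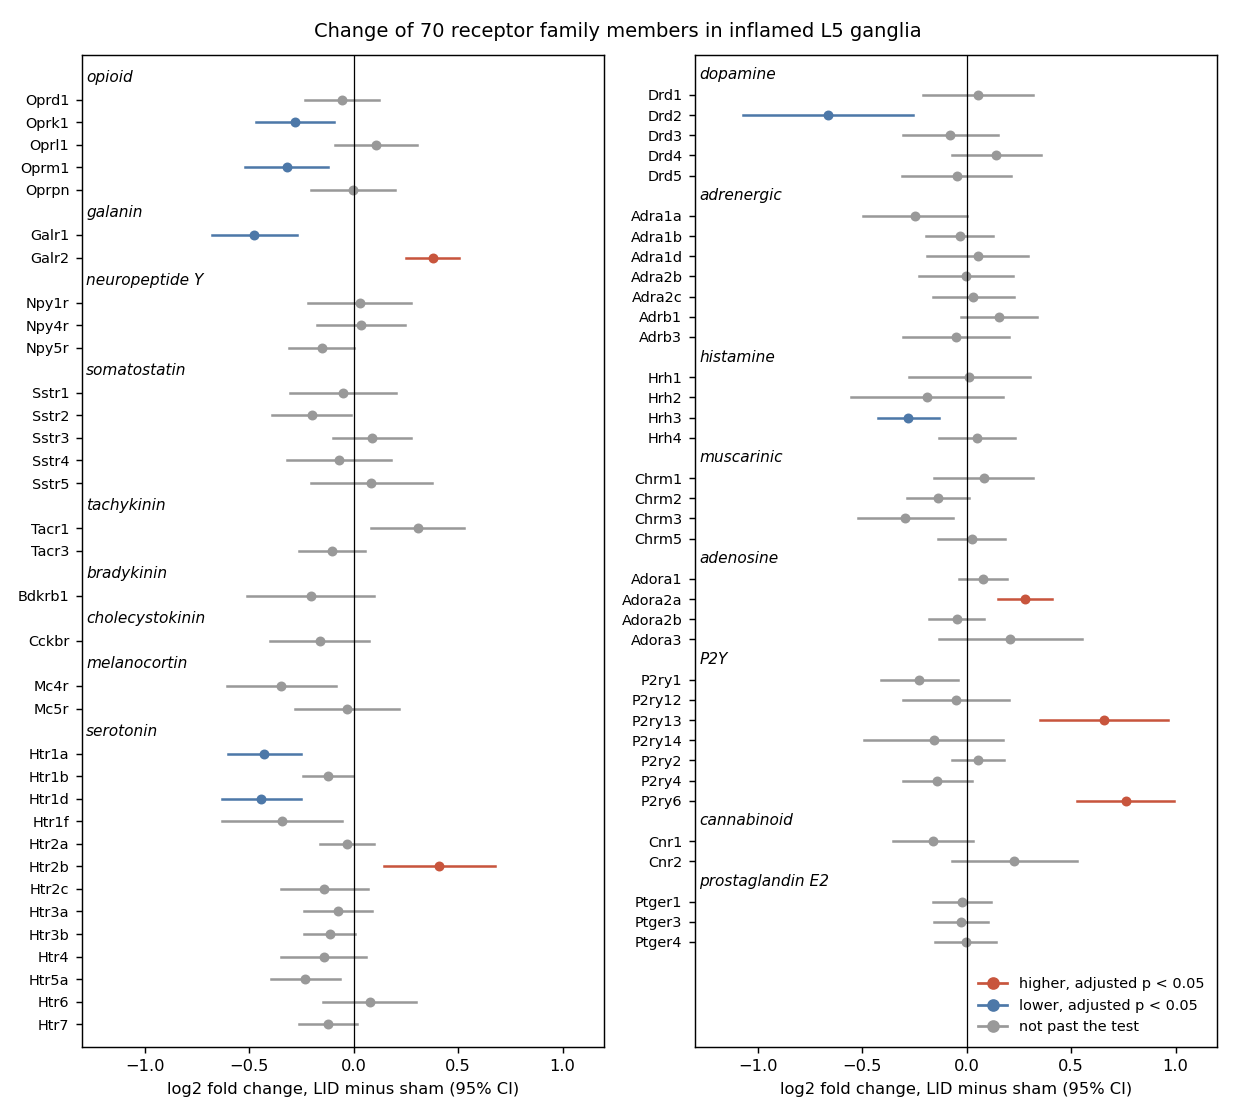
Log2 fold change (LID minus sham, x axis) with its 95% confidence interval for each of the 70 members, grouped by family, 6 arrays per group. Red points are the 5 upregulated and blue points the 7 downregulated members at an adjusted p under 0.05 in limma, and the 58 grey intervals did not pass, even where they miss 0.

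The largest increase among the members was that of P2ry6, a Gq-coupled receptor for uridine diphosphate that is known from microglia and macrophages. Its value had a lowest, median and highest of -0.72, -0.33 and -0.08 in the sham arrays and of 0.08, 0.40 and 0.62 in the LID arrays. Every LID array lay above every sham array, and the array closest to the sham values was LID replicate 6. The fold change was 1.69 (1.44 to 1.99, adjusted p = 0.00045), and the call was kept when each array was left out in turn. P2ry13, a Gi-coupled receptor for ADP, ran over -0.62, -0.36 and 0.03 (lowest, median, highest) in sham and -0.03, 0.31 and 0.83 in LID. The groups overlapped by 1 array each, since sham replicate 1 lay above LID replicate 6. P2ry13 rose 1.58-fold (1.27 to 1.95, adjusted p = 0.00599).

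The window before the start of P2ry13 is shown as an example of an upregulated member, since the P2ry6 window is not in the RefSeq table used. It covers the 250 bases before the annotated gene start on the GRCr8 assembly (chr2:145622785-145623034, minus strand), written 5′ to 3′ along the gene, and none of the 6 motifs searched (listed with the motif counts) was found in it, so no base is in capitals. The GC content of this window was 37.6%.
P2ry13 promoter: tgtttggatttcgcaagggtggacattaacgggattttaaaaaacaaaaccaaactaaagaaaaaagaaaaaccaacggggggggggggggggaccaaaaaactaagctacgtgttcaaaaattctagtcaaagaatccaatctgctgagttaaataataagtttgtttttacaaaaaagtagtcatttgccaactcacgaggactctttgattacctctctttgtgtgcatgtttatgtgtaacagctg

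The other 5 P2Y receptors did not pass the test. P2ry1, an ADP receptor, was at -0.23 (-0.41 to -0.04, adjusted p = 0.0848) on the log2 scale, and it was called lower without LID replicate 1 or LID replicate 6. P2ry2, which responds to ATP and UTP, was at 0.05 (-0.07 to 0.18), P2ry4 at -0.14 (-0.31 to 0.02), P2ry12, the target of antiplatelet drugs, at -0.05 (-0.30 to 0.20) and P2ry14, a receptor for UDP-sugars, at -0.16 (-0.49 to 0.17). In the RefSeq gene order P2ry6 directly neighbours P2ry2 on chromosome 1, and P2ry13 directly neighbours P2ry12 on chromosome 2. The called genes therefore sat beside members of the same family that did not pass, although these differences between neighbours were not tested.

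**Figure D2:**
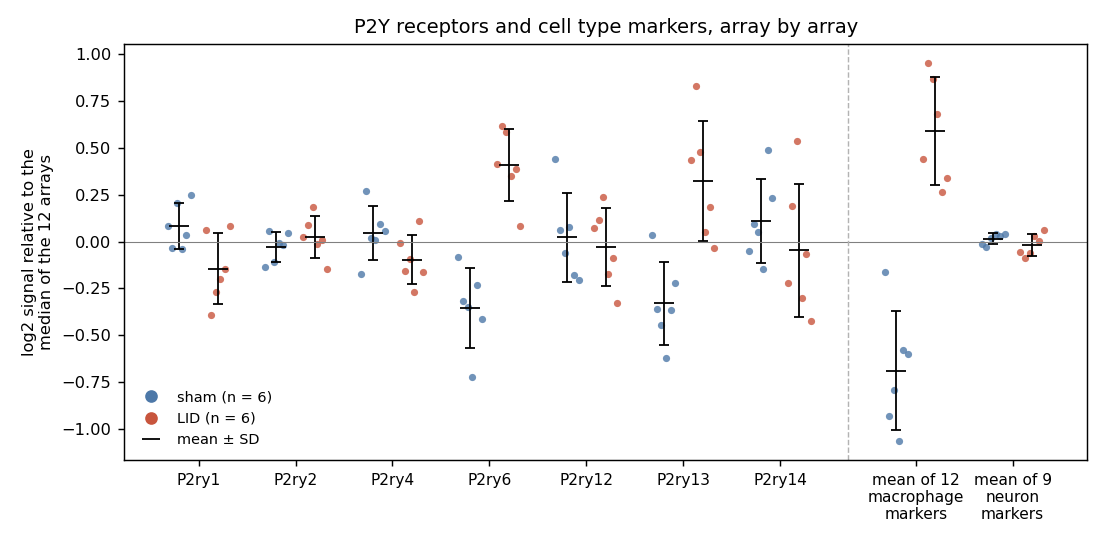
Log2 signal relative to the median of the 12 arrays (y axis) for the 7 P2Y receptors and, to the right, for the mean of 12 macrophage and of 9 neuronal markers. Each point is 1 array (6 sham in blue, 6 LID in red) and bars give mean ± SD. P2ry6 and the macrophage mean separate the groups, P2ry13 does so except for 1 array each, and the other P2Y receptors and the neuronal mean overlap.

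Adora2a, the Gs-coupled adenosine receptor that restrains immune cells, ran over -0.20, -0.11 and 0.01 in sham and -0.02, 0.22 and 0.28 in LID (lowest, median, highest). In 5 of the 6 LID arrays it lay above every sham array, the exception being LID replicate 3. It rose 1.21-fold (1.11 to 1.32, adjusted p = 0.00517), and this call was kept without any single array. Adora1, the Gi-coupled receptor through which adenosine reduces pain, was at 0.08 (-0.04 to 0.19), Adora2b at -0.05 (-0.18 to 0.08) and Adora3 at 0.21 (-0.13 to 0.55), and none of the 3 passed. The macrophage marker mean, given above, separated the groups as P2ry6 did, and so did the mean of 6 markers of T, NK and B cells, at -0.44 to -0.09 in sham and 0.13 to 0.57 in LID, of which Klrk1 and Nkg7 were upregulated and 4 did not pass. Of 4 endothelial and mural markers, Pdgfrb and Rgs5 were upregulated, and the mean ran from -0.26 to 0.02 in sham and from -0.06 to 0.16 in LID. The part of these cell types in the changes of P2ry6, P2ry13 and Adora2a was not tested. In whole ganglia, fewer cells of a type and less RNA per cell cannot be told apart, and the same holds for increases.

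The 2 galanin receptors measured moved in opposite directions. Galr1, the Gi-coupled receptor, ran over 0.00, 0.22 and 0.40 in sham and -0.58, -0.22 and -0.00 in LID (lowest, median, highest). The groups did not overlap, although sham replicate 1, just above 0, and LID replicate 1, just below 0, nearly met. Galr1 fell by 0.48 (standard error 0.09, adjusted p = 0.00362). Galr2, which couples mainly to Gq, ran over -0.34, -0.20 and -0.07 in sham and 0.07, 0.18 and 0.27 in LID, so that every LID array was above every sham array. It rose 1.30-fold (1.19 to 1.42, adjusted p = 0.00082). Both calls were kept when each array was left out. Gal, which encodes the galanin precursor, was at 0.12 on the log2 scale (adjusted p = 0.564).

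The windows of 250 bases before the 2 galanin receptor genes are printed because these receptors differed in direction within 1 family. On GRCr8 they are chr18:78062360-78062609, minus strand, and chr10:102013376-102013625, plus strand, each written 5′ to 3′ along its gene. Capitals mark the GC box GGGCGG on either strand, which reads CCGCCC where it lies on the opposite strand. Galr1 held 2 GC boxes and Galr2 none, while their GC contents were 63.2% and 66.8%.
Galr1 promoter: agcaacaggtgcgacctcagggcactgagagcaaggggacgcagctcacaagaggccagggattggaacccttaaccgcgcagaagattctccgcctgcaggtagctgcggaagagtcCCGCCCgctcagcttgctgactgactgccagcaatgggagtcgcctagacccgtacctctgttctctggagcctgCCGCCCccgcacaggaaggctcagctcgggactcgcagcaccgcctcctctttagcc
Galr2 promoter: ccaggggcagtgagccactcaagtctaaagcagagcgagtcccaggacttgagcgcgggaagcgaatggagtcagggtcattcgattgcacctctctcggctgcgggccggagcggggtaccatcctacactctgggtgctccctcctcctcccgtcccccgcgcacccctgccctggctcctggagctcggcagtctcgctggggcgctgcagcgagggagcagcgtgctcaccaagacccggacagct

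**Figure D3:**
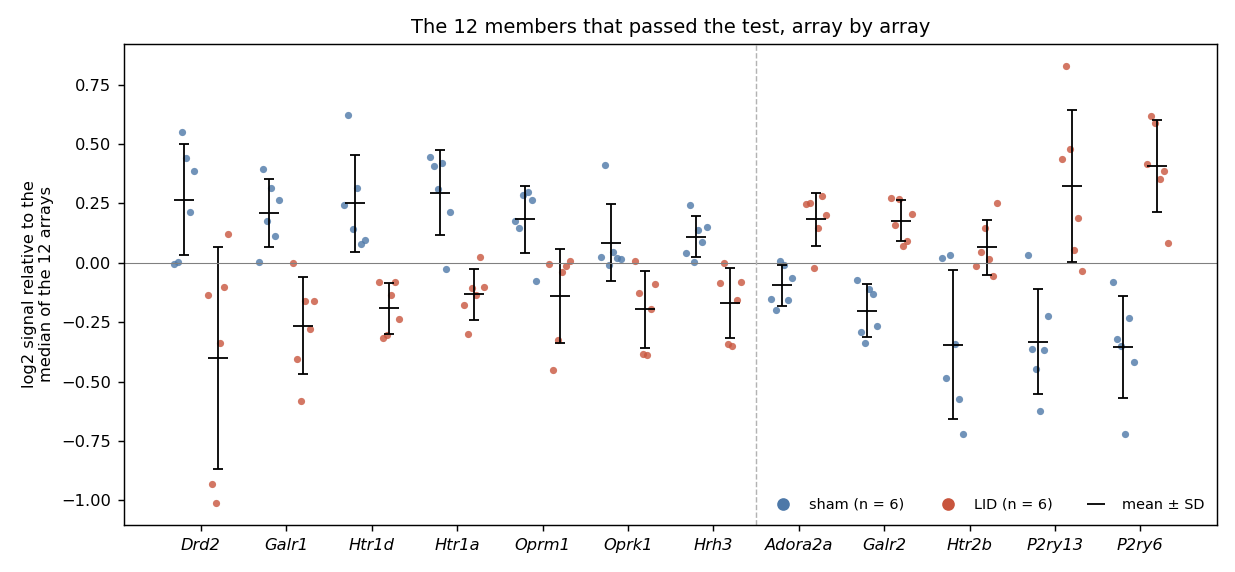
Log2 signal relative to the median of the 12 arrays (y axis) for the 12 called members, downregulated to the left and upregulated to the right of the dashed line. Each point is 1 array (6 sham in blue, 6 LID in red) and bars give mean ± SD. The groups do not overlap for Galr1, Htr1d, Hrh3, Galr2 and P2ry6, and the LID spread of Drd2 comes from 2 arrays near -1.

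The opioid receptors Oprm1 and Oprk1 were called lower, and both calls were lost when certain single arrays were left out. Oprm1, the mu receptor and main target of morphine, ran over -0.08, 0.22 and 0.30 in sham and -0.45, -0.03 and 0.01 in LID (lowest, median, highest). Only LID replicates 2 and 3 lay below every sham array, while 5 of the 6 sham arrays lay above every LID array. Oprm1 fell by 0.32 (standard error 0.09, adjusted p = 0.0264), but it no longer passed without sham replicate 3, 4 or 5 or without LID replicate 3 (highest adjusted p = 0.063). Oprk1, the kappa receptor for dynorphin, ran over -0.01, 0.02 and 0.41 in sham and -0.39, -0.16 and 0.01 in LID. Sham replicate 2 was at 0.41, while the other 5 sham arrays lay between -0.01 and 0.05. For Oprk1, 5 of the 6 LID arrays lay below every sham array, and 5 of the 6 sham arrays lay above every LID array. Oprk1 fell by 0.28 (standard error 0.09, adjusted p = 0.0381), or by 0.22 without sham replicate 2 (adjusted p = 0.0501), and the call was also lost without sham replicate 3, 4 or 5 or without LID replicate 2, 3, 4 or 5. Its loss at the largest p came without LID replicate 3 (adjusted p = 0.0876).

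The delta receptor Oprd1 was at -0.05 (-0.23 to 0.12), the nociceptin receptor Oprl1 at 0.11 (-0.09 to 0.30) and the precursor gene Oprpn at -0.00 on the log2 scale, and none of these passed. Of the opioid peptide precursors, Penk was at -0.15 (adjusted p = 0.54) and Pnoc at -0.04 (adjusted p = 0.828). Pdyn, the dynorphin precursor, was at -0.07 (adjusted p = 0.844) and Pomc at 0.03 (adjusted p = 0.876), and none of these precursors passed in limma.

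Serotonin receptors formed the largest family, with 13 members, of which 2 fell, 1 rose and 10 did not pass. The shares called, 15.4% lower and 7.69% higher, were near the 11.7% and 7.66% of all probesets. The median change of the 13 was -0.12 and 11 of them were below 0. The median was -0.05 over all 70 members and -0.02 over all probesets, of which 58.0% were below 0. Both that fell belong to the Gi-coupled 5-HT1 class. Htr1d, a target of the triptans used in migraine, ran over 0.08, 0.19 and 0.62 in sham and -0.31, -0.19 and -0.08 in LID (lowest, median, highest), without overlap. It fell by 0.44 (standard error 0.09, adjusted p = 0.00367). Htr1a ran over -0.03, 0.36 and 0.44 in sham and -0.30, -0.12 and 0.03 in LID, with only sham replicate 5 and LID replicate 5 out of order. It fell by 0.43 (standard error 0.08, adjusted p = 0.00268), and both calls were kept without any single array. Htr1b, the other triptan target, was at -0.12 (-0.24 to -0.01, adjusted p = 0.147), Htr1f at -0.34 (adjusted p = 0.0936) and Htr5a at -0.23 (adjusted p = 0.0507), so that all 5 Gi-coupled serotonin receptors had negative values while 3 of them did not pass.

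The Htr1d window (chr5:153939485-153939734, plus strand, GRCr8, GC content 66.8%) is printed as an example of a downregulated serotonin receptor. Capitals mark 3 GC boxes (GGGCGG) and 1 match to GAGGAA, the core that the myeloid factor PU.1 binds.
Htr1d promoter: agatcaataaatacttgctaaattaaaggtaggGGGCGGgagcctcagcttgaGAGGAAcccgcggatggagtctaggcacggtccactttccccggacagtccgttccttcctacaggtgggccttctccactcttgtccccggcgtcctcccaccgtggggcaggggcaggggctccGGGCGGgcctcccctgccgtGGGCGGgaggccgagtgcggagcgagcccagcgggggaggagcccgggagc

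Htr2b, a Gq-coupled receptor known from smooth muscle and fibroblasts, went the other way. It ran over -0.72, -0.41 and 0.03 in sham and -0.06, 0.03 and 0.25 in LID (lowest, median, highest), and sham replicates 1 and 3 lay among the LID values. It rose 1.33-fold (0.41 on the log2 scale, standard error 0.12, adjusted p = 0.0321). It was called under 10 of 21 alternative settings, and the call was lost without sham replicate 2, 4, 5 or 6 or LID replicate 2, 3 or 6 (highest adjusted p = 0.0719 among the arrays left out). Of its relatives Htr2a was at -0.03 (-0.16 to 0.10) and Htr2c at -0.14 (-0.35 to 0.07). The Gs-coupled Htr7 was at -0.12 (-0.26 to 0.02), Htr4 at -0.14 and Htr6 at 0.08, and the channel subunits Htr3a and Htr3b were at -0.07 and -0.12, and none of these passed.

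Drd2, the Gi-coupled dopamine receptor, had the largest decrease among the members. It ran over -0.01, 0.30 and 0.55 in sham and -1.01, -0.24 and 0.12 in LID (lowest, median, highest). LID replicates 2 and 3 were at -0.93 and -1.01, LID replicate 6 was at 0.12, and sham replicates 1 and 2 were near 0. Drd2 fell by 0.66 (standard error 0.19, adjusted p = 0.025), and the call was lost without sham replicate 3, sham replicate 4 or LID replicate 2 (adjusted p up to 0.0598). The other dopamine receptors, Drd1, Drd3, Drd4 and Drd5, lay between -0.08 and 0.14 and did not pass. Hrh3, the Gi-coupled histamine receptor that limits histamine release, ran over 0.00, 0.11 and 0.24 in sham and -0.35, -0.12 and -0.00 in LID. Its groups did not overlap, although sham replicate 3 and LID replicate 2 met at 0, and it fell by 0.28 (standard error 0.07, adjusted p = 0.0111) with the call kept without any single array. Hrh1, the Gq-coupled target of antihistamines, was at 0.01 (-0.28 to 0.30).

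None of the 7 adrenergic receptors passed in limma (0 at an unadjusted p under 0.05). Adra1a was at -0.25 (-0.50 to 0.00, adjusted p = 0.167) and was called lower only without sham replicate 6, among the arrays left out in turn, Adrb1 was at 0.15 (-0.03 to 0.34) and Adra2c, one of the targets of clonidine, at 0.03 (-0.16 to 0.23). None of the 4 muscarinic receptors passed (1 at an unadjusted p under 0.05). Chrm3 was at -0.29 (adjusted p = 0.0701), with LID values between -0.17 and 0.00 and sham values between -0.09 and 0.57, and Chrm2 was at -0.14 (-0.28 to 0.01).

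Among the other peptide receptors, Tacr1, the receptor for substance P, came closest to the threshold. It ran over -0.38, -0.19 and 0.09 in sham and -0.12, 0.13 and 0.44 in LID (lowest, median, highest), with overlap, and its fold change was 1.24 (1.06 to 1.44, adjusted p = 0.0528). Tacr1 passed under 10 of 21 alternative settings, among them without sham replicate 1, without sham replicate 2 (adjusted p = 0.0264) and without LID replicate 3. Tac1, the precursor gene of substance P, was at 0.10 on the log2 scale (adjusted p = 0.514). Mc4r, the melanocortin receptor known for control of feeding, was at -0.35 (-0.61 to -0.09, adjusted p = 0.0624) and was called lower without sham replicate 3, sham replicate 6 or LID replicate 2. Bdkrb1, the bradykinin receptor induced by injury in other tissues, was at -0.21 (-0.51 to 0.10), an interval that holds changes in both directions, and Cckbr, a cholecystokinin receptor, was at -0.16 (-0.40 to 0.08). The neuropeptide Y receptors Npy1r, Npy4r and Npy5r were at 0.03 (-0.22 to 0.28), 0.04 (-0.17 to 0.25) and -0.15 (-0.31 to 0.00). The 5 somatostatin receptors lay between -0.20 and 0.09, with Sstr2 at the lower end (adjusted p = 0.138), and Sstr2 was called lower without sham replicate 5.

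The lipid receptors did not pass either. Cnr1, the Gi-coupled cannabinoid receptor of neurons, was at -0.16 (-0.35 to 0.03), and Cnr2, the cannabinoid receptor of immune cells, was at 0.23 (-0.07 to 0.53). The prostaglandin E2 receptors Ptger1, Ptger3 and Ptger4, through which prostaglandins sensitize sensory neurons, were at -0.02 (-0.16 to 0.12), -0.03 (-0.16 to 0.10) and -0.00 (-0.15 to 0.14).

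Sorted by the G protein, a grouping made after the values were seen, the 7 downregulated members were all among the 34 Gi/o-coupled receptors. These are 20.6% of the class, where 11.7% of all probesets fell. In that class P2ry13 rose and 26 members did not pass. Of 20 Gq-coupled receptors, P2ry6, Galr2 and Htr2b rose (15%, background 7.66%) and 0 fell in limma, and of 13 Gs-coupled receptors Adora2a rose (7.69%) and 0 fell. At an unadjusted p under 0.05, 6 Gq-coupled and 2 Gs-coupled members passed, among them Chrm3, P2ry1 and Mc4r with negative values. The medians of the 3 classes were -0.06, -0.03 and -0.05, close to one another. The count of Gi/o-coupled members called lower ran from 3 to 9 over the alternative settings, being 4 without sham replicate 3 or sham replicate 4 and 9 without sham replicate 6, and the count called higher ran from 0 to 4, the latter with the olfactory receptor median as covariate. Under several settings members outside the class were called lower as well, namely Mc4r, Chrm3, P2ry1 and Adra1a. Mc4r was called under 7 of 21 alternative settings, P2ry1 under 3 and Adra1a under 1. The replicate block called 3 members outside the class lower at once. The difference between the classes was not tested, since they were formed with the calls in view.

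**Figure D4:**
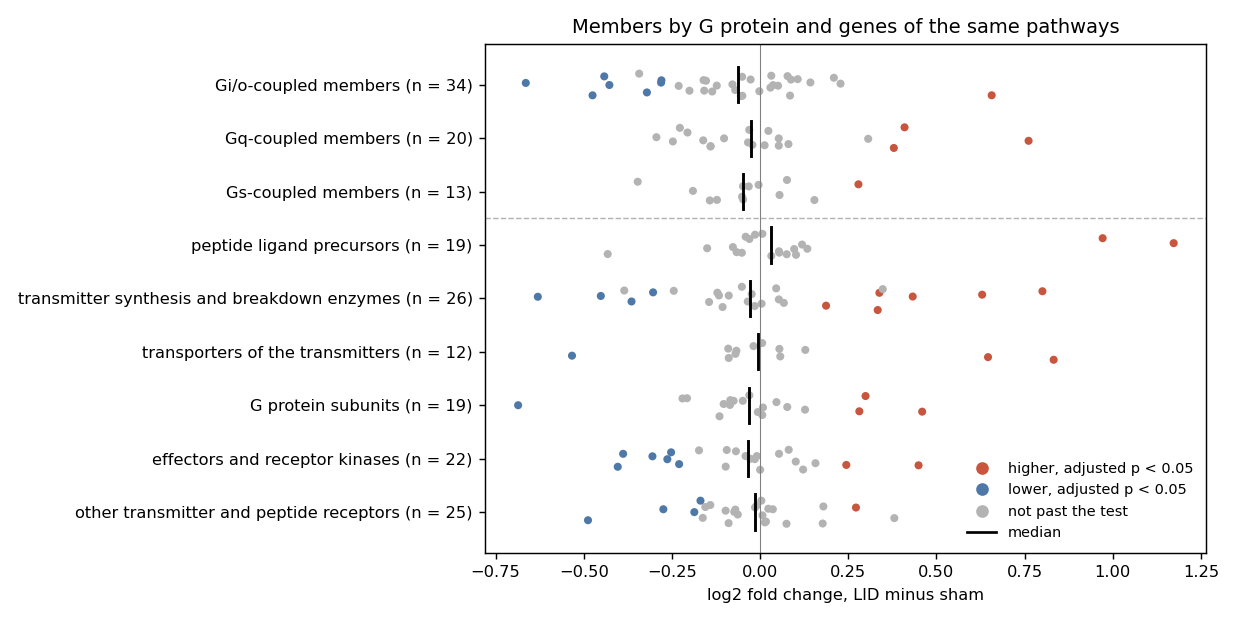
Log2 fold change (LID minus sham, x axis) of members sorted by G protein, above the dashed line, and of genes of the same pathways, below it. Each point is 1 probeset, red or blue where it passed an adjusted p of 0.05 in limma, and the black bar is the median of each row, which stays between -0.06 and 0.03 in every row.

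A call for one receptor and none for its relative does not show that they differ, so 10 pairs of receptors were compared by their difference within each array. The test was an exact two-sided permutation test over arrays, adjusted over the 10 pairs, and the smallest p it allows is 0.00216. Galr1 minus Galr2 ran from 0.07 to 0.69 in sham and from -0.85 to -0.23 in LID, without overlap. The difference between groups was -0.85 (-1.14 to -0.56, exact p = 0.00216, adjusted p = 0.0216), and it passed when each array was left out. This pair was already known to hold 1 downregulated and 1 upregulated gene, so the separation follows in part from those calls.

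Htr1d minus Htr1b differed by -0.32 (-0.56 to -0.08, adjusted p = 0.0433, exact permutation test) and Adora1 minus Adora2a by -0.20 (-0.35 to -0.05, adjusted p = 0.0433, exact permutation test), with overlap in both. Both of these calls were lost without sham replicate 1, 2, 3 or 6 or LID replicate 2, 3, 4, 5 or 6, the first also without sham replicate 4 and the second also without sham replicate 5. Cnr1 minus Cnr2 differed by -0.39 (-0.76 to -0.02, adjusted p = 0.114, exact permutation test) and did not pass. Neither did P2ry1 minus P2ry2 at -0.28 (-0.57 to 0.01) or Oprm1 minus Oprd1 at -0.27 (-0.58 to 0.05). Oprm1 minus Oprk1 was at -0.04 with an interval from -0.33 to 0.25, Ptger3 minus Ptger4 at -0.02 (-0.22 to 0.17), Sstr2 minus Sstr4 at -0.13 (-0.31 to 0.05) and P2ry12 minus P2ry14 at 0.11 (-0.32 to 0.54). For the pair Oprm1 and Oprk1 the interval still holds differences as large as the changes of either gene.

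**Figure D5:**
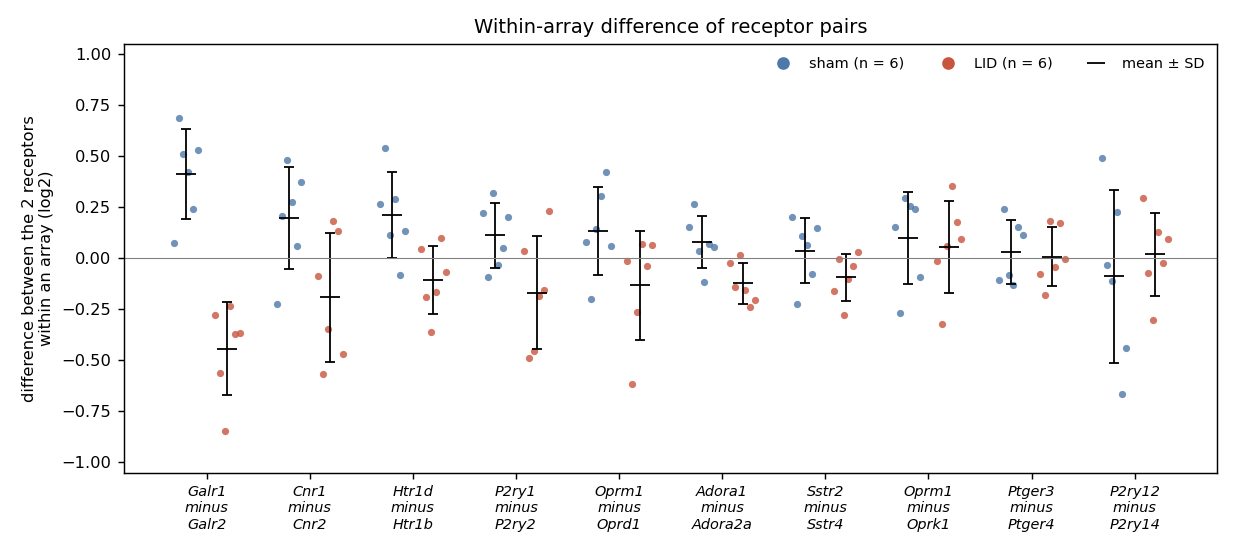
Difference between 2 receptors within an array (first minus second, log2 units relative to the median of the 12 arrays, y axis) for 10 pairs. Each point is 1 array (6 sham in blue, 6 LID in red) and bars give mean ± SD. The groups are apart for Galr1 minus Galr2 and overlap for the other 9 pairs.

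Genes that supply, remove or transmit the signals of these receptors were counted in lists of the same pathways. Of 19 peptide precursors measured (24 listed), Npy and Edn1 rose and 17 did not pass. Npy, the precursor of neuropeptide Y, rose 2.25-fold (1.72 to 2.95) and Edn1, the endothelin precursor, 1.96-fold (1.52 to 2.53), each without overlap between groups. Of 26 enzymes of transmitter synthesis and breakdown (35 listed), 6 rose and 4 fell, where 7.66% and 11.7% of all probesets did so. Entpd1, the ectonucleotidase CD39 that degrades ATP and ADP, rose 1.74-fold (1.42 to 2.14), the peptidase Ace 1.55-fold (1.37 to 1.75) and the prostaglandin synthase Ptgs2 1.35-fold (1.16 to 1.57). Among ectonucleotidases of the same family, Entpd2 rose 1.26-fold (1.09 to 1.46) and Entpd3 fell by 0.30 on the log2 scale (1.23-fold lower). Napepld, which makes the lipid anandamide and its relatives, fell by 0.63 on the log2 scale (1.55-fold lower). The cholinesterase Bche fell by 0.45 and the neutral endopeptidase Mme, which degrades enkephalins and tachykinins, by 0.36.

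Against the same background, of 12 transporters the nucleoside transporter Slc28a2 rose 1.78-fold (0.83 on the log2 scale, standard error 0.11), the prostaglandin transporter Slco2a1 rose 1.56-fold (1.32 to 1.85) and the choline transporter Slc5a7 fell by 0.53. Of 19 G protein subunits (28 listed), Gna15, Gnai3 and Gnb2 rose and Gng7 fell by 0.69 (standard error 0.07, adjusted p = 3.76e-05), while 15 did not pass. Of 22 effectors and receptor kinases (30 listed), 2 rose (9.09%) and 6 fell (27.3%), where 7.66% and 11.7% of all probesets did so. Kcnj3 and Kcnj6, subunits of the potassium channels that Gi/o-coupled receptors open, fell by 0.39 (standard error 0.07) and 0.40 (standard error 0.10), while Kcnj9 of the same family was at 0.08 (adjusted p = 0.634). Adcy4 rose 1.37-fold (1.17 to 1.59) and Plcb4 and Adcy8 fell by 0.31 and 0.26. Of 25 related receptors outside the rule (36 listed), the prostacyclin receptor Ptgir rose 1.21-fold and 4 fell, among them Mrgprd, a receptor of small-diameter sensory neurons, by 0.49 and Trhr by 0.27. The medians of the 6 lists lay between -0.03 and 0.03, next to -0.02 over all probesets.

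The windows of 250 bases before the gene start were found for 54 of the 70 members in the RefSeq table for GRCr8 (57 windows), including 5 of the 7 downregulated and 3 of the 5 upregulated members. The GC box GGGCGG, searched on both strands as all motifs were, was present in 36.8% of the members' windows and in 30.5% of all 33469 windows, and in 4 of 6 windows of downregulated and 0 of 3 windows of upregulated members. The median GC content was 64.6% in these 6 windows, 39.6% in these 3 and 51.2% over all windows. The part of GC content in the GC box counts was not tested. GAGGAA was present in 19.3% of the members' windows (23.3% of all), the STAT site TTCNNNGAA in 7.02% (7.67%), TATAAA in 10.5% (12.9%), the cyclic AMP response element TGACGTCA in 1.75% (1.59%) and the AP-1 site TGANTCA in 0% (6.34%). These are matches of letters only. No motif holds another, so a match to one does not imply a match to another.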

How the data were processed

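Gene expression was measured in 12 single L5 DRG (6 sham, 6 LID), grouped by the sample titles. The deposited values are log2 signals that the authors summarized at gene level (core probesets, rn4 build) with RMA16, quantile normalized and set relative to the median of all arrays in GeneSpring. Scale and direction were checked against the linear fold changes in a supplementary table of the study. RNA was isolated with 1 of 2 kits, and which sample had which is not given in the sources used here, so kit and group could not be separated. No expression filter could be applied with these values. Every column was used (0 columns of other samples).

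Symbols came from the platform annotation, updated by Entrez ID through RefSeq (0 changed, 7584 of 7603 found). LID was compared with sham in limma 3.58.1 (R 4.3.3, statmod 1.5.0), two-sided, Benjamini-Hochberg adjusted over 8260 probesets. Pairs were compared by exact permutation of arrays (Python 3.11.15, scipy 1.17.1, numpy 2.4.6, pandas 2.3.3), and both tests were tested on simulated data. Promoter windows came from RefSeq (GRCr8, 250 bases before the gene start). Alternatives were moderation, normalization, array weights, the olfactory receptor median as covariate, adjustment, thresholds, a replicate block and arrays left out.

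The members and lists were chosen with earlier results of these data known. Named were the called members, members of the preset pairs and a preset list of receptors, and in related lists up to 6 called genes with a fold change over 1.2. Htr1f, Htr2c, Htr3b, Htr4, Htr5a, Htr6, Chrm3, Drd3 to Drd5, Npy4r, Npy5r, Oprpn, P2ry4, Entpd2, Entpd3 and the non-called list genes were added to this rule with their values known. Olr1, a receptor for oxidized LDL, was kept out of the olfactory list.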

Additional observations from a re-analysis of the deposited data

Results flagged for a closer look

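Among the 43 members first named (called, paired or preset), 4 had a value far from the other 5 arrays of their group. The other members, such as Htr6, were not checked for such values. Oprk1 in sham replicate 2 was at 0.41, above the other sham arrays at -0.01 to 0.05. Sstr4 was at 0.64 in the same array, against -0.14 to 0.00 in the others, and Htr3a was at -0.23 there, against -0.01 to 0.10. Cnr1 in LID replicate 6 was at -0.29, against -0.07 to 0.04 in the other LID arrays. The 4 values came from 86 groups of 6 arrays (43 named members in each group), of which chance would single out about 5%, and 3 of the 4 were in sham replicate 2, the array that stood apart over all members.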

How the results depend on the processing

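The main counts were 12 members called, 5 higher and 7 lower. With the olfactory receptor median as covariate 19 were called and 10 were higher. The Benjamini-Yekutieli adjustment left 6 (3 higher, 3 lower), an adjusted p under 0.01 left 7 (3 lower), and a fold change over 1.5 left 3 (2 higher, 1 lower). At an adjusted p under 0.10, 12 were lower. Without 1 array the total ran from 8 to 15, higher from 4 to 6 and lower from 4 (without sham replicate 4) to 11 (without sham replicate 6). The cause of these shifts was not tested. Of the 3 pairs that passed, the number that passed without 1 array ran from 1 to 3, and 3 passed in limma, with Cnr1 minus Cnr2 in place of Adora1 minus Adora2a.

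The replicate numbers were not used as pairs, since not every same-numbered pair correlated. The correlation of same-numbered arrays' deviations from the group means ran from -0.15 to 0.40, and for 2 of 6 numbers the best match was the array of the same number. With the replicate block 17 members were called, of which 11 were lower, with Mc4r, Chrm3 and P2ry1 among them, and 6 higher, and 5 pairs passed in limma with the block, a fit added after the data were seen.

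P2ry6, Galr2, Galr1, Htr1a, Htr1d and Adora2a were called under all 21 alternatives in the fit, the adjustment or the arrays used, with the threshold kept, Hrh3 and P2ry13 under 20, Drd2 under 17, Oprm1 under 15, Oprk1 under 11 and Htr2b under 10. No called value changed sign. Over 43 named members and these settings, 809 of 903 values kept their direction and their side of the threshold, 33 lost a call, 26 gained one and 35 that were not called changed sign. Among the 43 named members, an unadjusted exact permutation test added Tacr1, Mc4r, P2ry1 and Htr1b at a p under 0.05 and lost none. Outside the named members, the same exact permutation test added Chrm3, Htr5a and Htr1f at that threshold. Since no level of expression is left, signal over background cannot be read from the values, and 6 arrays per group limit what small changes can be seen.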
